A study of Homo sapiens with 26 samples.

Results

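The regions described here are the 1440 bins of 100 kb on the derivative chromosomes 9:22 and 22:9, the products of the Philadelphia translocation, out of 26331 used bins of the whole data set. They were taken by the chromosome name in the deposited table, with a value above 0 in at least 1 of 26 cells. The derivative 9:22 holds 1307 of them and 22:9 holds 133. On 9:22, 265 of 1615 bins had no value and 43 were 0 in all cells, and on 22:9 these numbers were 164 and 15 of 312. The 26 samples are single cells of clone 5-8 of KBM7, a near-haploid human leukaemia line, all labelled haploid (1N) and DamOnly, that is, with an unfused Dam methyltransferase. Shield1, a ligand that stabilises proteins carrying a destabilising domain, was given at 0.5 nM for 15 h before sorting of single cells that carried both Fucci cell cycle markers and lay in the smallest 2% by scatter. All cells come from 1 clone and form 1 group with no other condition. Comparisons are therefore between parts of the genome within a cell, an SD describes how cells differ, and no p-value was computed.

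In the Philadelphia translocation the end of the long arm of chromosome 9 and most of the long arm of chromosome 22 change places. The break on chromosome 22 lies in BCR, a gene for a signalling protein with kinase and GTPase-regulating domains, and the break on chromosome 9 lies in ABL1, the gene of a tyrosine kinase. The short derivative 22:9 is the Philadelphia chromosome and carries the BCR-ABL1 fusion, whose kinase is constantly active and drives chronic myeloid leukaemia. Dam methylates adenine in GATC, and DpnI then cuts the methylated sites, so the recovered fragments map chromatin that the enzyme could reach.

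The sequences upstream of the 2 genes cut by the translocation are shown because they contain the target that the assay reads, or lack it. Each is the 250 bases before the gene's start on the plus strand, from RefSeq (GRCh38.p14), with GATC in capitals.
BCR: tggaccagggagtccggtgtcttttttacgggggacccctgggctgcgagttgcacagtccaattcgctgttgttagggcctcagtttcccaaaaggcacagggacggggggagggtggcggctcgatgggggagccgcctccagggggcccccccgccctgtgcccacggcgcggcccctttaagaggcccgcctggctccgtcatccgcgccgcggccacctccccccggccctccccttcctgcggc
ABL1: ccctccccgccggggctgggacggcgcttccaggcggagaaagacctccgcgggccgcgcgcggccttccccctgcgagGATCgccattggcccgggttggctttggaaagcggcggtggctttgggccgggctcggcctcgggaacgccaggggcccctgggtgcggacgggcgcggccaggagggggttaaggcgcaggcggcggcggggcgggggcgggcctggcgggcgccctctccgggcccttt
The ABL1 window holds 1 GATC, the BCR window holds 0, and 35.8% of 35116 such windows hold at least 1. The motif reads the same on both strands. A 100 kb bin is far longer than these windows, and no value below refers to a single site.

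The deposited values are linear ratios of observed over expected signal per bin and cell. The whole counts behind them totalled 20182 at the lowest (cell 21), 42448.5 at the median and 178941 at the highest (cell 1), or 0.766 to 6.80 counts per used bin. Values were therefore averaged over segments, windows or cells. A value depends on the copy number of a region as well as on how far Dam reached it, and copy number was not analysed here. No pair of cells had identical values. Intervals given for summed counts cover counting error only.

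Each derivative was divided at its junction, taken as base 133600000 of 9:22 and base 23600000 of 22:9. Positions are bases along the derivative, with hg19 as the build, so beyond a junction they are not hg19 positions of chromosome 9 or 22. The junctions are placed only to the nearest bin. The 4 bins touching a junction were left out of both sides. On 9:22 the chromosome 9 part was divided again at the longest stretch without a used bin, 44900001 to 66500000, which gave 9p (396 bins, 100001 to 44900000) and 9q (632 bins, 66500001 to 133500000). Beyond the junction lies the larger part of chromosome 22, called 22 distal (277 bins, 133700001 to 161400000). On 22:9, 22 proximal holds 58 bins (17000001 to 23500000), and the terminal part of chromosome 9, called 9 tip, holds 73 bins (23700001 to 31000000). The level of a segment in a cell is its mean ratio divided by the mean over all used bins of the other autosomes, without X.

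On 9:22 the chromosome 22 part carried more Dam signal than the chromosome 9 parts, whereas on 22:9 the order of the parts depended on whether bins at 0 in every cell were counted. On 9:22, the level of 22 distal was 0.644 in the lowest cell, 1.49 in the median cell and 2.85 in the highest, with a mean of 1.57 ± 0.504 (SD, n = 26 cells). It was above 1 in 25 cells, cell 22 being the exception. The highest value, in cell 17, falls to 2.14 when counts are summed before division by the expectation, below cells 7 (2.61), 3 (2.40) and 13 (2.37), because 1 count in the bin 161300001 to 161400000 gave a relative ratio of 192 there. 9q ran from 0.722 through a median of 1.08 to 1.71, with a mean of 1.11 ± 0.232, above 1 in 18 cells. 9p was the lowest segment, running from 0.640 through 0.836 to 2.25, with a mean of 0.949 ± 0.332, and was above 1 in only 6 cells. Its highest value, in cell 21, falls to 1.11 with summed counts, because 1 bin with an expectation of 0.316% of the median (40700001 to 40800000) reached a relative ratio of 393 there.

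On 22:9, the 9 tip ran from 0.454 through a median of 1.19 to 2.01, with a mean of 1.21 ± 0.295, and was above 1 in 22 cells. The level of 22 proximal was 1.02 in the lowest cell, 1.40 in the median cell and 2.05 in the highest, with a mean of 1.42 ± 0.291, and lay above 1 in all 26 cells. When bins at 0 in every cell were kept, the 9 tip had a mean of 1.20 with 21 cells above 1, and 22 proximal one of 1.15 with 19 cells above 1. Cell 22 had the lowest level in 3 of the 5 segments, namely 22 distal, 9q and the 9 tip.

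Summed over cells and divided by the expectation, the counts of 22 distal (23901) were 1.51 times those of the other autosomes, with exact 95% Poisson limits of 1.49 and 1.53. 9q had 40018 counts and a value of 1.09 (1.07 to 1.10), and 9p had 19505 and 0.883 (0.870 to 0.895). The 9 tip had 4926 counts and 1.26 (1.23 to 1.30), and 22 proximal 4054 and 1.54 (1.49 to 1.59). The spread of the level between cells was 32.2% of the mean for 22 distal and 20.5% for 22 proximal. The counting error of the summed counts averaged 3.89% and 9.51%, but the level weights all bins alike, so these are unlike measures. Single bins added to the spread, since the SD of 9p was 0.206 without bins of low expectation, under 0.5 times the median. Among the 30 arms of 15 other autosomes the spread ran from 11.1% to 36.4%, and 1 arm exceeded 22 distal.

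**Figure D1:**
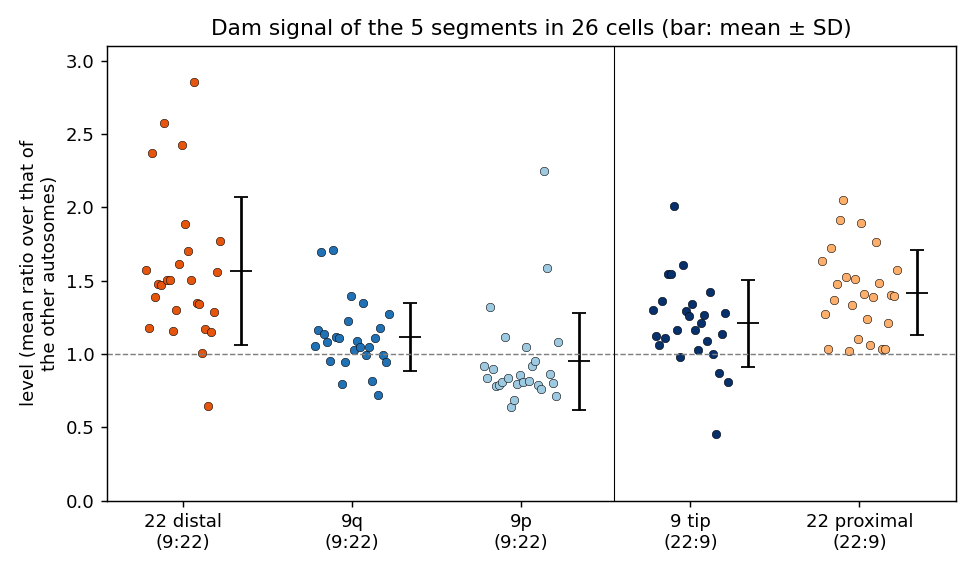
Level of each segment in each of 26 cells (points, 1 per cell), with the mean and SD beside them. The vertical axis is the mean ratio of the segment over the mean of the other autosomes, the dashed line marks 1, and 4 cells of 22 distal stand above 2.3.

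Within single cells the order of the parts was mostly the same on 9:22. On 9:22, 22 distal was above the whole chromosome 9 part in 24 of 26 cells, with a mean log2 ratio of 0.53 ± 0.41, a 1.45-fold difference. The values ran from -0.71 in cell 22 to 1.27 in cell 17, and with summed counts from -0.74 in cell 22 to 0.96 in cell 13. The mean without cell 22 was 0.58. Against 9q alone, 22 distal was again higher in 24 cells, with a log2 ratio of 0.45 ± 0.28. On 22:9 the 9 tip was below 22 proximal in 21 cells, at a log2 ratio of -0.25 ± 0.33, with cell 22 lowest at -1.19 and cell 11 highest at 0.27. Without cell 22 the mean was -0.21, and with every cell thinned to 20000 counts the 9 tip was lower in 20 of 26. With bins at 0 in every cell kept the direction turned, to a mean of 0.04 with the 9 tip higher in 15 cells, so no order of these parts is given.

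Parts of one normal chromosome that now sit on different derivatives were less clearly ordered. The 9 tip was above the chromosome 9 part of 9:22 in 21 cells, at a log2 ratio of 0.18 ± 0.50, but in 16 cells (0.10 ± 0.43) when 9q alone was used and in 18 (0.07) when 1 Mb on each side of the junctions was left out. 22 distal was above 22 proximal in 12 cells and below in 14, at 0.11 ± 0.50, but above in 22 cells, at 0.42, with bins at 0 in every cell kept. For the derivatives as wholes, 9:22 had a level of 1.16 ± 0.229 and 22:9 one of 1.32 ± 0.260, and 9:22 was the lower in 19 cells. With bins at 0 in every cell kept these mean levels were closer, at 1.13 and 1.20.

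The parts also differ in gene content, which the choice of regions did not use. Counted by the order of protein-coding genes in RefSeq (GRCh38.p14), 346 genes follow BCR on chromosome 22 and 104 precede it, whereas 145 follow ABL1 on chromosome 9 and 632 precede it. Per 10 used bins this gives 12.5 genes in 22 distal, 6.15 in the chromosome 9 part of 9:22, 19.9 in the 9 tip and 17.9 in 22 proximal. The part with fewest genes per bin had the lowest level of these 4, at 1.05 ± 0.199, while the 9 tip, with most, stood at 1.21, below 22 distal. The genes are counted over all bins of a part and divided by its used bins.

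By the same order, 22 distal carries among others EWSR1, an RNA-binding protein, the tumour suppressor NF2, the myosin gene MYH9, the cytokine receptor gene CSF2RB, the blood cell GTPase gene RAC2 and the acetyltransferase gene EP300. 22 proximal carries TBX1, the gene of a transcription factor, and CRKL, whose product is an adaptor and a known BCR-ABL1 substrate. The 9 tip carries NOTCH1, TSC1 and RXRA, and the chromosome 9 part of 9:22 carries JAK2, CDKN2A, PAX5, SYK and TAL2. The nearest protein-coding genes with a standard symbol are RAB36 before BCR and IGLL1 after it, and EXOSC2 before ABL1 and QRFP after it. The gene table is of another genome build than the bins, so none of these genes was placed in a bin.

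Along 9:22 high and low windows alternated on the chromosome 9 part, whereas on the chromosome 22 part every window of 5 Mb had a mean above 1. In windows of 1 Mb, 5 of 28 on 22 distal had a mean below 1, the lowest being 158700001 to 159700000 at 0.514 ± 0.294. Windows of 5 Mb were counted from the junction on 22 distal and 9q, and from the start of the derivative on 9p. All 6 such windows of 22 distal, 7 of 13 on 9q and 2 of 8 on 9p had a mean level above 1. The highest window of 9q was the one next to the junction, 128500001 to 133500000, at 1.95 ± 0.532 and above 1 in 25 cells. The window before it, 123500001 to 128500000, was at 1.70 ± 0.565. The lowest on 9q, 103500001 to 108500000, was at 0.656 ± 0.295 and above 1 in 3 cells.

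The lowest window of 9:22 was on 9p, 10000001 to 15000000, at 0.528 ± 0.260, above 1 in 1 cell. 9p also contained a high window near its inner end, 35000001 to 38900000, at 1.60 ± 0.440 and above 1 in 24 cells. On 22 distal the highest window was 148700001 to 153700000 at 2.06 ± 0.765. The outer windows were lower, 153700001 to 158700000 at 1.20 ± 0.397 and the last one, 158700001 to 161400000, at 1.47 ± 1.65. Without bins of low expectation the last one was at 1.12 ± 0.422. The bin left out had 1 count in cell 17 and was above 0 in 2 cells.

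On 22:9, windows of 1 Mb varied as widely within the 9 tip as between the parts. The 9 tip was highest next to the junction, 23700001 to 24700000, at 1.78 ± 0.591 (above 1 in 23 cells), lowest at 27700001 to 28700000 with 0.629 ± 0.406 (3 cells), and high again at its outer end, 29700001 to 30700000, with 1.57 ± 0.498. On 22 proximal the highest window, 17500001 to 18500000, was at 1.66 ± 0.521. The lowest, 17000001 to 17500000, was at 1.01 ± 0.723 and consists of 5 used bins, 4 of them with an expectation under 0.5 times the median.

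**Figure D2:**
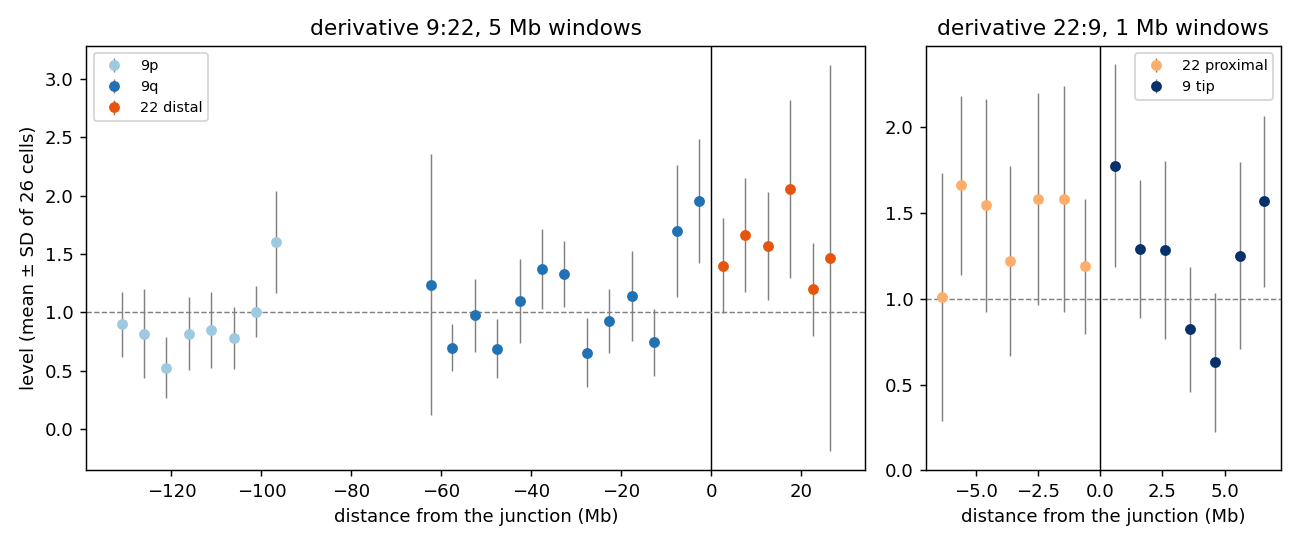
Mean level (points) and SD between 26 cells (bars) of 5 Mb windows on 9:22 and 1 Mb windows on 22:9, against the distance of the window's centre from the junction in Mb. The windows of 9q next to the junction reach 1.95, the highest of 22 distal 2.06, and the 9 tip dips to 0.629 between 2 high stretches.

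The 2 sides of each junction were then compared over equal lengths. On 9:22 the chromosome 22 side was lower than the chromosome 9 side. Over 5 Mb the level was 1.40 ± 0.405 beyond the junction and 1.95 ± 0.532 before it, with a mean log2 ratio of -0.46 ± 0.31 and the chromosome 22 side lower in 25 of 26 cells. Over 2 Mb the levels were 1.65 ± 0.499 beyond and 2.03 ± 0.627 before (lower in 18 cells). Over 1 Mb they were 1.39 ± 0.560 beyond and 2.00 ± 0.733 before (lower in 19 cells). Neither of the shorter lengths reached 21 cells on a side.

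On 22:9 the direction depended on the length and on the bins left out at the junction. Over 1 Mb the chromosome 9 side had a level of 1.78 ± 0.591, against 1.19 ± 0.393 on the chromosome 22 side, and was higher in 22 cells. With no bin left out at the junction it was higher in 18 cells, at a log2 ratio of 0.22 in place of 0.52 ± 0.71. Over 2 Mb the levels were 1.53 ± 0.403 beyond and 1.35 ± 0.366 before (higher in 19 cells), at a log2 ratio of 0.18 ± 0.32. That ratio was -0.02 with no bin left out at the junction (higher in 17 cells) and -0.01 with 0.5 Mb left out (15 cells). Over 5 Mb the order was turned, with 1.16 ± 0.285 beyond and 1.41 ± 0.341 before, and the chromosome 9 side lower in 22 cells. That length held 50 used bins beyond the junction and 43 before it. The steps were not recomputed with bins at 0 in every cell kept, the setting that turned the order of the whole parts.

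Of the 4 single bins at the junctions 3 averaged above 2. On 22:9 the bin just beyond the junction, 23600001 to 23700000, on the ABL1 side of the fusion, averaged 1.26 ± 0.953 from 86 counts and was at 1 or more in 15 cells. The bin just before, 23500001 to 23600000, on the BCR side, had a ratio relative to the other autosomes of 1.10 in the lowest cell, 4.18 in the median cell and 11.3 in the highest. Its mean was 4.53 ± 2.17 from 259 counts, the highest of any bin on 22:9 with an expectation of at least 0.5 times the median, and its ratio was 1 or more in all 26 cells. Of all used bins 0.0911% were so in every cell.

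On 9:22 both bins touching the junction were high. The bin beyond it, 133600001 to 133700000, averaged 2.35 ± 1.73 from 122 counts and was at 1 or more in 21 cells. The bin before it, 133500001 to 133600000, averaged 2.61 ± 2.42 from 133 counts and was at 1 or more in 19 cells. The third bin out on each side had a mean of 1.38 ± 1.48 beyond (133800001 to 133900000) and 0.595 ± 0.721 before (133300001 to 133400000).

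Positive is used here of a bin whose ratio in a cell is at least 1. On both derivatives together 109 of 1440 bins (7.57%) were positive in at least 80% of the cells, against 5.61% of all used bins. The share was highest on 22 distal, where 44 of 277 bins (15.9%) were shared in this way. The share was 6.65% on 9q, 5.48% on the 9 tip, 5.17% on 22 proximal and 3.54% on 9p. Per cell, 54.6% ± 12.7 of the bins of 22 distal and 53.2% ± 12.7 of those of 22 proximal were positive, against 36.0% ± 2.61 of all used bins. The share per cell was 46.7% ± 11.6 on the 9 tip, 39.7% ± 7.63 on 9q and 31.7% ± 5.46 on 9p. Bins of low expectation, under 0.5 times the median, made up 6 of 277 on 22 distal and 11 of 58 on 22 proximal, and their part in the difference in shared bins was not tested.

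Bins positive in at most 20% of the cells made up 343 of 1440 (23.8%), against 33.5% of all used bins. They were frequent on 9p, with 152 of 396 (38.4%), and rare on 22 distal, with 22 of 277 (7.94%). The share was 24.5% on 9q, 12.3% on the 9 tip and 8.62% on 22 proximal. Positive in no cell were 8 bins, 6 on 9p and 2 on 9q, against 0.889% of all used bins. At another value for positive, or another depth, both counts differ widely. With positive set at 2, 0.417% of the bins on the derivatives were shared, against 0.460% of all used bins.

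The longest unbroken block of shared bins on 9:22 spanned 5 bins of 22 distal, 151900001 to 152400000, with a relative ratio of 0.797 in the lowest cell, 2.79 in the median cell and 7.05 in the highest. The next, of 4 bins each, were on 9q at 130300001 to 130700000 (2.79 ± 1.22) and at 132500001 to 132900000 (2.85 ± 1.21), the second ending within 1 Mb of the junction. On 22:9 the longest had 2 bins, 24400001 to 24600000 on the 9 tip, at 2.29 ± 0.973. The longest run of bins positive in at most 20% of cells covered 22 bins of 9p, 10000001 to 12200000, at 0.295 ± 0.124 and 0.547 in its highest cell. The second, of 16 bins on 9q at 104400001 to 106000000, averaged 0.317 ± 0.197. On 22:9 it had 6 bins, 27500001 to 28100000 on the 9 tip, at 0.461 ± 0.293.

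Among bins with an expectation of at least 0.5 times the median, the highest region of 9:22 was 146800001 to 147000000 on 22 distal. Its 2 bins averaged 6.76 ± 3.76 from 669 counts, with 2.22 in the lowest cell, 5.81 in the median cell and 18.3 in cell 26. Next came 132700001 to 132800000 on 9q at 4.02 ± 2.36, 152100001 to 152200000 on 22 distal at 4.00 ± 3.32, and 80500001 to 80600000 and 100800001 to 100900000 on 9q at 3.85 ± 2.98 and 3.59 ± 2.24. Each was positive in at least 23 cells, but the regions were picked by their mean over the same cells, so this count is no separate finding. After the junction bin, the highest on 22:9 were 21900001 to 22000000 on 22 proximal at 3.07 ± 1.77, then 30200001 to 30300000 and 30400001 to 30500000 on the 9 tip at 2.94 ± 2.16 and 2.65 ± 2.19, and 18100001 to 18200000 on 22 proximal at 2.55 ± 1.82.

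The lowest 5 regions of 9:22 all lay on 9p. They averaged between 0.132 ± 0.314, at 22700001 to 22800000 from 8 counts, and 0.160 ± 0.431, at 30600001 to 30700000 from 6 counts, and were positive in at most 2 cells. These too were picked by their mean over the same cells, so that count is no separate finding. The lowest on 22:9 were less low. They ran from 0.416 ± 0.642, at 30600001 to 30700000 on the 9 tip, to 0.557 ± 0.571, at 27000001 to 27100000 on the 9 tip, and 4 of the 5 were on the 9 tip.

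The levels of the 2 whole segments joined at each junction varied together over the cells, but those of the 1 Mb on each side less so. Over the 26 cells the level of 9q and that of 22 distal had a Pearson correlation of 0.810 (Spearman 0.629), and the level of 22 proximal and that of the 9 tip one of 0.616 (0.590). Between parts of one normal chromosome on different derivatives the correlation was 0.0800 (0.316) for 22 distal and 22 proximal, and 0.138 (-0.0427) for 9q and the 9 tip. These are descriptions of 26 cells of 1 clone that share the same bins, expectation and denominator. Leaving out each cell in turn, the 4 values ran from 0.767 to 0.843, 0.497 to 0.677, -0.0727 to 0.255 and -0.0525 to 0.222.

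Without the 2 cells farthest from the median of the first segment the same 4 values were 0.737, 0.428, 0.0981 and 0.100. A contrast between the pairs for chromosome 22 rests on the 4 cells of highest 22 distal level, cells 3, 7, 13 and 17. In the other 22 cells the correlation of 22 distal was 0.585 with 9q and 0.607 with 22 proximal, whereas that of 22 proximal with the 9 tip was 0.646 and that of 9q with the 9 tip 0.0970. For chromosome 9 the pattern of whole segments was therefore seen with and without these cells. It was not seen without them in windows of 1 Mb close to the junctions. There the mean correlation was 0.125 across the 9:22 junction and 0.381 across the break in chromosome 9.

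**Figure D3:**
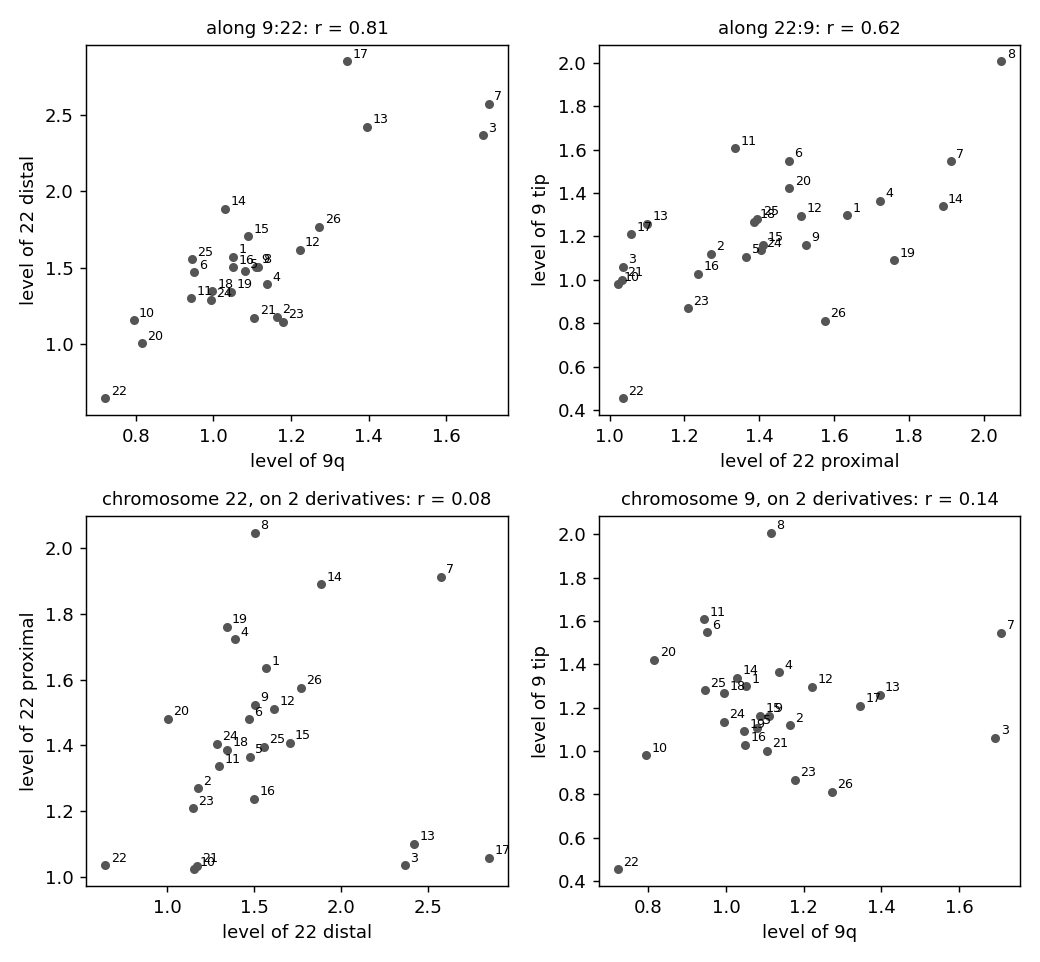
Levels of 2 segments against each other, each point a cell labelled with its number. The upper panels show parts joined by the translocation (r = 0.810 along 9:22 and 0.616 along 22:9), the lower panels parts of one normal chromosome that it separated (0.0800 and 0.138). Cells 3, 13 and 17 are high for 22 distal and low for 22 proximal.

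The correlations along the derivatives lay within the range of those between the arms of other autosomes. Chromosomes 8 and 15 and those with fewer than 50 used bins on an arm were left out. Between the arms of the 15 other autosomes it ran from -0.112 to 0.877 with a median of 0.424, and 2 autosomes exceeded 0.810. For 22 proximal and the 9 tip, 7 of 15 autosomes had a higher value than 0.616. By Spearman, 6 of 15 exceeded 9q with 22 distal and 6 exceeded 22 proximal with the 9 tip. Between arms of different autosomes the median of 420 pairs was -0.0543, the highest 0.804, and 3 pairs exceeded 0.616. The values across the derivatives, 0.0800 and 0.138, both lay between the median and the upper quartile (0.153) of these pairs.

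9p took little part in the co-variation as computed over all used bins, with a correlation of 0.0773 with 9q and of -0.138 with 22 distal. The first rose to 0.658 and the second to 0.439 without bins of low expectation and without cell 22. Some other measures moved with the levels. The level of the 9 tip had a correlation of 0.531 with the cell's log2 ratio of chromosomes 16, 17, 19 and 20 over 4, 5, 13 and 18, and the level of 22 proximal one of 0.510 with log10 of the total count. With every cell thinned to 20000 counts, the correlation of 9q with 22 distal was 0.679 and that of 22 proximal with the 9 tip 0.548. The part of depth was not tested further. With every segment taken as a residual on that ratio of gene-dense over gene-poor chromosomes, the correlations along the derivatives were 0.802 and 0.642.

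Single cells showed how far a rise extended along a derivative. In each window of 5 Mb the level of a cell was divided by the median of the 26 cells. In cell 3 all 27 windows of 9:22 were above that median, between 1.32 and 2.00 times, with the windows of 9p at 1.36 to 1.83 times. Its 4 windows on 22:9 were between 0.396 and 1.00 times. In cell 7 all 13 windows of 9q and all 6 of 22 distal were raised, between 1.14 and 2.28 times, but 9p was not, with 2 of 8 windows above the median. Its 4 windows on 22:9 were at 1.28 to 1.53 times.

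In cells 13 and 17 the rise on 9q was uneven. In cell 13 the 4 windows from the junction were at 1.71, 1.81, 0.640 and 1.67 times the median, and in cell 17 the first 5 ran from 1.49 to 1.85 times. The remaining windows of 9q ran from 0.649 to 1.43 times in cell 13 and from 0.743 to 1.22 times in cell 17. These stretches were chosen after the values were seen. The windows on 22:9 had a median of 0.891 times in cell 13 and 0.862 times in cell 17. The single window of cell 17 at 8.32 times, at the outer end of 22 distal, owes its height to 1 count in a bin whose expectation is 0.316% of the median, and stands at 1.41 times without that bin. These cells were picked for their 22 distal level after the values were seen, so their height there is no finding. The level of 9q had a correlation of 0.810 with that of 22 distal, and the same cells were the highest on 9q. Their height on 9q is therefore not separate from the choice.

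Cell 8 ran the other way. It had the highest level on both parts of 22:9, 2.01 on the 9 tip from 277 counts and 2.05 on 22 proximal from 206 counts. On 9:22 it was close to the median cell at 1.51 on 22 distal and 1.12 on 9q, and at 1.12 on 9p, where 3 cells were higher. The 4 windows of 22:9 were at 1.04 to 1.94 times the median of cells. Cell 8 was also picked after the values were seen, so its height on 22:9 is no finding.

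Between all windows of 5 Mb, the mean correlation was 0.435 for the 78 pairs of a 9q and a 22 distal window, 76 of them above 0. For comparison it was 0.377 among windows of 9q and 0.645 among windows of 22 distal. Across the derivatives it was -0.00316 for 26 pairs of 9q with 22 proximal, 0.0493 for 26 pairs of 9q with the 9 tip, -0.0198 for 12 pairs of 22 distal with 22 proximal and 0.182 for 12 pairs of 22 distal with the 9 tip. The 4 pairs of 22 proximal with 9 tip windows averaged 0.318. Windows of one segment share cells and denominator and are not independent.

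**Figure D4:**
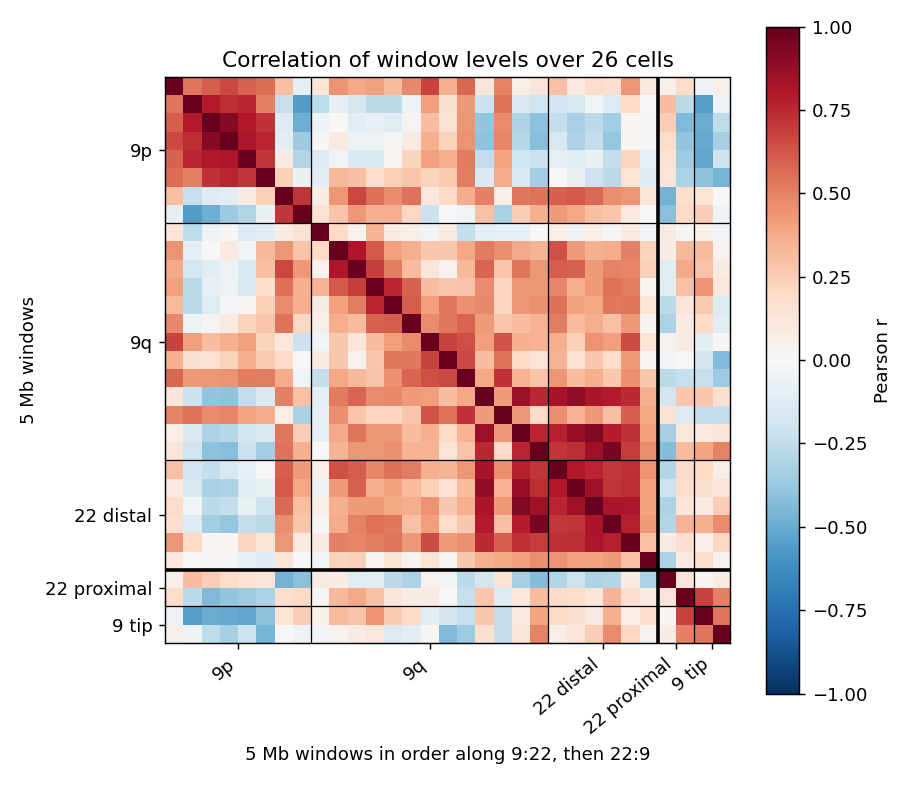
Pearson correlation over 26 cells between the levels of 5 Mb windows, in order along 9:22 and then 22:9, on a colour scale from -1 to 1. Thin lines divide the segments and the thick line the derivatives. The block of 9q with 22 distal averages 0.435 and that of 22 distal with 22 proximal -0.0198.

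Among the windows of 9q, 3 of the 4 nearest the junction went with 22 distal most closely. The correlation with the level of 22 distal was 0.881 for the window next to the junction, 0.870 for the next, 0.492 for the third and 0.847 for the fourth. Among the other 9 windows it ran from 0.0146 in the innermost to 0.542 in the eleventh from the junction. The innermost window holds a single-count bin of cell 12, and without bins of low expectation its value was 0.0595. In that setting the 4 windows nearest the junction were at 0.897, 0.897, 0.476 and 0.8997. On 9p it ran from -0.225 to 0.521. The window next to the junction also had a correlation of 0.497 with the 9 tip, which adjoins it on a normal chromosome 9, and one of 0.102 with 22 proximal.

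**Figure D5:**
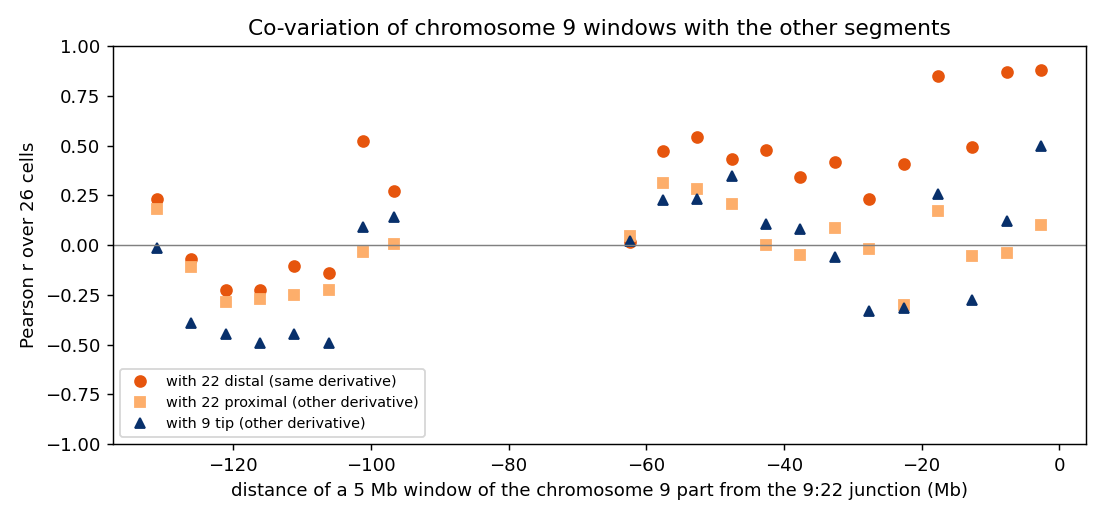
Pearson correlation over 26 cells between each 5 Mb window of the chromosome 9 part of 9:22 and the levels of 22 distal, 22 proximal and the 9 tip, against the window's distance from the junction in Mb. The values with 22 distal reach 0.881 next to the junction, and those with 22 proximal there are at 0.102.

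Close to the junctions the values for joined and separated sides lay nearer to each other, and their order depended on the cells left out. Windows of 1 Mb that lay up to 5 Mb apart across the 9:22 junction had a mean correlation of 0.341 (15 pairs), and across the 22:9 junction 0.325 (15 pairs). Across the break in the normal order it was 0.266 for chromosome 9 and 0.125 for chromosome 22, with 15 pairs each. Pairs at the same distances averaged 0.310 within 9q, 0.415 within 22 distal, 0.136 within 22 proximal, 0.249 within the 9 tip and 0.191 on all other autosomes. Without cell 22 the 4 values were 0.249 and 0.2002 across the junctions, and 0.123 for chromosome 9 and -7.30e-05 for chromosome 22. Without cells 3, 7, 13 and 17 the value across the 9:22 junction was 0.125 and that across the break in chromosome 9 was 0.381. Between the equal lengths compared on the 2 sides of the 9:22 junction, the correlation was 0.205 over 1 Mb, 0.276 over 2 Mb and 0.712 over 5 Mb. At the 22:9 junction it was 0.321 over 1 Mb, 0.639 over 2 Mb and 0.675 over 5 Mb.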

How the data were processed

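Single-cell DamID was measured in 26 cells of 1 clone, and the table held 1 column per cell, matched to its sample by number. The authors deposited a linear ratio per 100 kb bin, read as observed over expected from the table's name and from means near 1. Per the submitters' processing notes, cutadapt and Bowtie2 2.1.0 were run, with hg19 as the build. How bins were counted, masked and given an expectation: not given in the sources used here. Lamin B1 appears in the series title, whereas every sample is labelled DamOnly.

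Whole counts and a relative expectation per bin were recovered from the ratios (largest distance from a whole number 2.27e-13, tolerance 0.001). For bins with few counts they are known only up to a common factor. Levels, contrasts, steps (0.1 added to both means), windows (at least 15 used bins in 5 Mb, 5 in 1 Mb) and correlations were computed as described with the results. Arms of other autosomes were divided at the longest stretch without used bins, with at least 50 bins on each side. A side was called at 21 of 26 cells. Named regions were the segments, the junction windows and bins, the highest and lowest windows, the 5 highest and 5 lowest regions per derivative after merging adjacent ranked bins, and the longest blocks. The regions and lists were chosen with earlier results of these data known. Single cells 3, 7, 13, 17 and 8 were picked after their values were seen. Alternatives covered bin filters, capping, averaging, left-out cells, thinning, junction margins and the value that defines positive. In simulated counts with real expectations and depths, 99.98% of 26274 bins were recovered exactly and the 5 segment levels lay within 3.32% of those planted. Python 3.11.15 was run with matplotlib 3.10.9, scipy 1.17.1, pandas 2.3.3 and numpy 2.4.6.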

Additional observations from a re-analysis of the deposited data

How the results depend on the processing

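Of 192 recomputed values for levels, contrasts, steps, correlations and bin counts, 180 stayed within their criterion (1 SD between cells, 0.2 for a correlation, 1.5 times for a count), 11 moved and 1 turned its direction. The last was the 9 tip over 22 proximal, at 0.0449 on the log2 scale with bins at 0 in every cell kept. For a mean of 26 cells 1 SD between cells is a wide criterion, so staying within it says little. With those bins kept, 22 proximal counted as within it at 1.15 in place of 1.42, with 19 cells above 1 in place of 26. So did 22 distal over 22 proximal, at 0.418 in place of 0.106. In all, 11 values of 5 contrasts, steps or correlations changed sign, the others being of values whose direction no 21 cells shared or of correlations near 0. The correlation of 9q with 22 distal was 0.585 without the 4 cells of highest 22 distal level, and that of 22 distal with 22 proximal was 0.607 there and -0.234 without the 6 cells of lowest total. With each cell left out in turn, it ran from 0.767 to 0.843 for 9q with 22 distal, 0.497 to 0.677 for 22 proximal with the 9 tip, -0.0727 to 0.255 for 22 distal with 22 proximal and -0.0525 to 0.222 for 9q with the 9 tip. Windows across the 9:22 junction averaged 0.125 without those 4 cells, and windows across the break in chromosome 22 -0.103 without the 6 cells of lowest total. The cause was not tested. With positive set at 0.5, the bins shared by at least 80% of cells were 337, or 23.4% of those on the derivatives against 17.8% of all used bins. With it set at 2 they were 6 (0.417% against 0.460%), and without the 6 cells 184 (12.8% against 9.18%). The bins positive in at most 20% of cells were 72 with 0.5 (5% against 6.86%). They were 964 with 2 (66.9% against 75.1%) and 202 after thinning (14.0% against 19.4%). The 21-cell side was lost by 9:22 with bins at 0 kept (19 cells above 1), by the 9 tip with thinned counts (20 cells) and by the 22:9 step over 1 Mb with 0.5 Mb left out on each side (19 cells). It was also lost by the 9 tip over the chromosome 9 part of 9:22 with thinned counts (higher in 18 of 26 cells). Without the 6 cells of lowest total the 9 tip was above 22 proximal in 5 of 20 cells, so fewer than 80% were on 1 side. Other losses are given with the results. Leaving out the 4 cells, leaving out each cell in turn, keeping bins at 0 for the contrasts, and some settings with low-expectation bins or thinned counts were chosen after the data were seen. No paired analysis was possible because no groups of samples were compared, and the contrasts and steps were taken within each cell. Depth limits single bins in single cells most.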

Other observations

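Cell 22, one of the cells of lowest total count (21105 counts), had an unusual profile along 9:22. Relative to the median of the 26 cells its windows of 5 Mb on 9p ran from 0.130 to 3.33 times with a median of 2.25, and 6 of 8 were above 1. Its windows on 22 distal had a median of 0.382 times, none of the 6 above 1, and those on 9q a median of 0.492 times, with 4 of 13 above 1. On 9p it was lowest in the window that was highest on average, 35000001 to 38900000, at 0.130 times the median, and highest in the window that was lowest on average, 10000001 to 15000000, at 3.33 times. Its levels rest on 509 counts on 9p, 398 on 9q, 146 on 22 distal, 41 on 22 proximal and 25 on the 9 tip.

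Single bins with a very small expectation can carry a whole window in 1 cell. On 9q the bin 69200001 to 69300000 had 1 count in cell 12 and none in the other cells, which gave a relative ratio of 150.5 and put the window at 6.98 times the median of cells, against 0.803 times without that bin. On 22 distal the bin 161300001 to 161400000 had 1 count in cell 17 and a relative ratio of 192. That bin was above 0 in 2 cells. Cell 14 stood at 4.44 times the median of cells in the same window. Its 22 distal level was 1.89, or 1.53 with summed counts.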
